A study of Bos taurus with 15 samples.

Results

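Subcutaneous adipose tissue of the dewlap was compared between the first week after calving and mid-lactation in cows with a severe negative energy balance (SNEB). The comparison held 3 SNEB libraries at 1 week postpartum (wkpp) and 3 SNEB libraries at 16 wkpp, out of the 15 libraries of the series, and all 13896 genes of the annotation, with the synthetic spike-in RNAs set aside. The cows were primiparous Holstein cows on the low-energy diet from -4 wkpp, and the 3 of each group were those that the study's methods describe as the most extreme in energy balance at 1 wkpp. The other libraries were 3 at -4 wkpp, which the labels assign to neither energy group, and 3 each at 1 and 16 wkpp from cows on the high-energy diet with a moderate negative energy balance (MNEB). Each library was 1 biopsy of whole tissue, taken after a fast, so that adipocytes, vessels, matrix cells and immune cells were sequenced together. Fewer cells of a type and less RNA per cell cannot be told apart in such tissue.

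In the first weeks of lactation a dairy cow spends more energy on milk than it takes in, and adipose tissue covers the gap. Lipolysis, set off by catecholamines and restrained by insulin, splits stored triacylglycerol into fatty acids and glycerol, while the synthesis of new fat slows. Leptin, adiponectin and other adipokines report the state of this store to the rest of the body, and growth factors that signal through ERK, together with hypoxia and the matrix around the cells, shape how the tissue shrinks and expands.

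The values below are normalized read counts, that is, reads divided by the library's size factor. There was an exon analysis and a whole gene analysis, the latter with introns included, and exonic values are given unless stated otherwise. The libraries carried no animal number, so those of a group were called A, B and C by their depth, and values are listed in that order. A letter does not tie a library at 1 wkpp to one at 16 wkpp. The study's methods describe biopsies of each cow at every time point, so that the groups may hold the same 3 cows, but which libraries share a cow is not given in the sources used here and no test below pairs them. In units of 1e6 reads, each library held 11.1 to 14.0 of exonic reads on genes at 1 wkpp and 12.6 to 14.9 at 16 wkpp, and 25.1 to 32.4 of reads on entire genes. Differences are log2 fold changes of 1 over 16 wkpp from limma-voom with their standard errors (SE), so that a positive value is a higher level at 1 wkpp.

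Library C at 1 wkpp stood apart from its group. Over the 10496 genes tested, the log2 counts of this library had a mean Pearson correlation of 0.941 with the other 2 libraries at 1 wkpp and of 0.966 with the 3 libraries at 16 wkpp, and its highest correlation, 0.976, was with library C at 16 wkpp. Libraries A and B at 1 wkpp correlated at 0.969 with each other, and libraries A and B at 16 wkpp at 0.974. Library C at 16 wkpp correlated at 0.959 to 0.960 with the other 2 of its group. Correlations across genes do not count genes as replicates, and whether the 2 libraries C came from the same cow was not tested. Several list medians are therefore also given without one of these libraries.

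**Figure D1:**
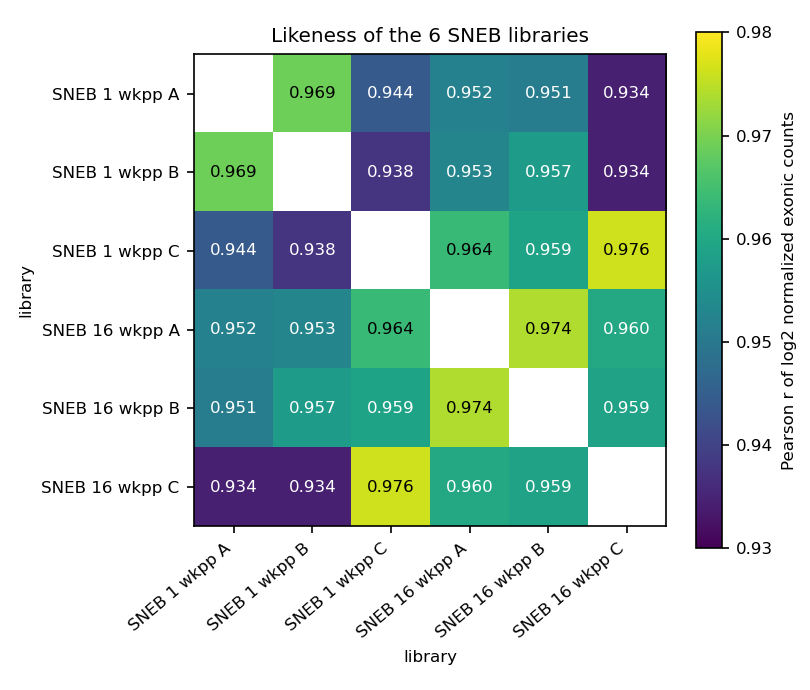
Pearson correlation of log2 normalized exonic counts (pseudocount of 0.5) between the 6 SNEB libraries over 10496 genes, with rows and columns as libraries and the coefficient in each cell. Library C at 1 wkpp and library C at 16 wkpp had the highest coefficient of all pairs, 0.976.

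A further difference went with the time points. The sample titles carry the code m2 at 1 wkpp and m1 at 16 wkpp in SNEB, the reverse in MNEB, and the libraries at -4 wkpp carry m1. The labels do not say what the code stands for. The proportions of 43 spike-in RNAs with a mean of at least 50 reads differed between 1 and 16 wkpp by log2 ratios from -2.39 to 1.46 in SNEB, and 41 of the 43 differed in the opposite direction in MNEB. Within SNEB, the code and the time point cannot be told apart. The mean of the SNEB and MNEB changes, in which the code cancels, is given below for the leading genes and for lists.

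The test called no gene, at an adjusted p-value below 0.01 on exons and on the entire gene, by limma-voom with Benjamini-Hochberg adjustment (0 of 10496 genes, 0%). No gene passed at 0.05 either, and limma-trend also called 0 genes. At an unadjusted p-value below 0.05, limma-voom singled out 763 of 10625 genes in the exon analysis and limma-trend 781. In both analyses together, with the same sign, 282 genes (2.69%) were higher at 1 wkpp and 195 genes (1.86%) were lower at an unadjusted p-value below 0.05. With size factors from total reads these numbers were 428 and 109. The exonic counts of the 3 libraries at 1 wkpp lay all above those at 16 wkpp for 719 genes (6.85%) and all below them for 533 genes (5.08%). None of the genes named below therefore passed the test across all genes, and each is described by its values. Where a group of genes is said to hold members past the unadjusted threshold, both analyses are meant, and these percentages are the background.

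The gene with the lowest p-value was leptin (*LEP*), the adipocyte hormone that signals the size of the fat store to the brain. Its normalized exonic counts were 722, 708 and 1055 at 1 wkpp and 71.2, 14.6 and 22.2 at 16 wkpp. All 3 libraries at 1 wkpp lay far above all 3 at 16 wkpp, library C included. The means were 828 ± 196 at 1 wkpp and 36.0 ± 30.7 at 16 wkpp (SD, n = 3), a ratio of 23.0. The log2 fold change was 4.75 ± 0.52 on exons (unadjusted p = 1.5e-05, adjusted p = 0.155) and 4.50 ± 0.69 over the entire gene (unadjusted p = 0.00015). At -4 wkpp, on a scale shared by the 15 libraries, *LEP* counts were 2488, 1718 and 2365, above those of both SNEB groups.

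Another 9 genes were higher in all 3 libraries at 1 wkpp with an unadjusted p-value below 0.001 in both analyses, and 0 genes met the same rule in the lower direction. The rule itself required groups that did not overlap. *SPRY4* encodes a Sprouty protein that damps signalling from receptor tyrosine kinases to ERK. Its counts were 432, 432 and 323 at 1 wkpp and 133, 95.1 and 102 at 16 wkpp, and the log2 fold change was 1.83 ± 0.24 (unadjusted p = 5.6e-05, adjusted p = 0.202). *PHYH*, the peroxisomal enzyme that starts the alpha-oxidation of phytanic acid, a branched fatty acid that ruminants take up in quantity, had counts of 6774, 6696 and 5475 at 1 wkpp and 1987, 2826 and 2455 at 16 wkpp and a log2 fold change of 1.39 ± 0.18 (unadjusted p = 5.7e-05). For both genes the lowest library at 1 wkpp was at least 1.9 times the highest at 16 wkpp.

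*RGS7* and *ADIPOR2* followed. *RGS7*, a regulator that shortens signalling by G proteins, had counts of 329, 307 and 281 at 1 wkpp and 102, 129.6 and 88.7 at 16 wkpp and a log2 fold change of 1.52 ± 0.22 (unadjusted p = 0.00011). *ADIPOR2*, a receptor for adiponectin, had counts of 2145, 2420.1 and 2617 at 1 wkpp and 1281, 1039 and 1204 at 16 wkpp and a log2 fold change of 1.03 ± 0.15 (unadjusted p = 0.00014). The rule required groups without overlap, and in both genes library C at 1 wkpp stood with A and B.

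*FABP4*, the fatty acid carrier of the adipocyte cytoplasm, was by far the most abundant of these 10 genes. Its counts were 62443, 82532 and 79561 at 1 wkpp and 37094, 37863 and 37039 at 16 wkpp, with a log2 fold change of 0.99 ± 0.19 (unadjusted p = 0.00066). The highest library at 16 wkpp was 2.2% above the lowest, while those at 1 wkpp were 1.65 times to 2.23 times as high as them.

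The other 4 genes of the rule were *FAM198B*, *ARHGEF37*, *TPPP* and *SEPT4*. *FAM198B* had counts of 364, 455 and 342 at 1 wkpp and 149, 138 and 189 at 16 wkpp and a log2 fold change of 1.29 ± 0.21. *ARHGEF37*, of a family of guanine nucleotide exchange factors, had counts of 388, 387 and 399 at 1 wkpp and 200.2, 129 and 189.7 at 16 wkpp and a log2 fold change of 1.20 ± 0.21. The rule required groups without overlap, and in these 4 genes the lowest library at 1 wkpp was at least 1.47 times the highest at 16 wkpp. *TPPP*, which promotes the polymerization of tubulin, had counts of 781, 729 and 693 at 1 wkpp and 416, 450.5 and 374 at 16 wkpp and a log2 fold change of 0.83 ± 0.15. *SEPT4*, a septin of the cytoskeleton, had counts of 974, 1047 and 862 at 1 wkpp and 502, 581 and 585 at 16 wkpp and a log2 fold change of 0.79 ± 0.15. The unadjusted p-values of these 4 genes were 0.00029, 0.00042, 0.00055 and 0.00079, in that order.

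The study lists 9 genes for this comparison, and 6 of them are among the genes above. It reported all 9 as differentially expressed with DESeq2. Its limit was a false discovery rate of 0.01, to be met on exons as well as on entire genes. The limma-voom test used here called none of them at that limit, so the outcome for this list differed between the methods. That list was drawn from these same libraries and is no independent evidence. Of its other 3 genes, *HCRTR1*, a receptor for the orexin peptides, was higher at 1 wkpp, with counts of 225, 363 and 252 at 1 wkpp and 105, 85.7 and 129 at 16 wkpp and a log2 fold change of 1.37 ± 0.28 (unadjusted p = 0.0011). *PERP*, a protein of cell junctions, and *TDH*, threonine dehydrogenase, were lower at 1 wkpp. *PERP* counts were 45.1, 51.7 and 38.5 at 1 wkpp and 344, 167 and 141 at 16 wkpp, with a log2 fold change of -2.20 ± 0.46 (unadjusted p = 0.0014). *TDH* counts were 29.5, 22.0 and 24.4 at 1 wkpp and 162, 74.2 and 364 at 16 wkpp, with a log2 fold change of -2.66 ± 0.75 (unadjusted p = 0.0075). Neither gene overlapped between the groups, and the libraries at 16 wkpp were spread over a range of 4.9 times for *TDH* and 2.4 times for *PERP*. The adjusted p-values of the 13 genes described so far ran from 0.155 to 0.683 on exons.

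**Figure D2:**
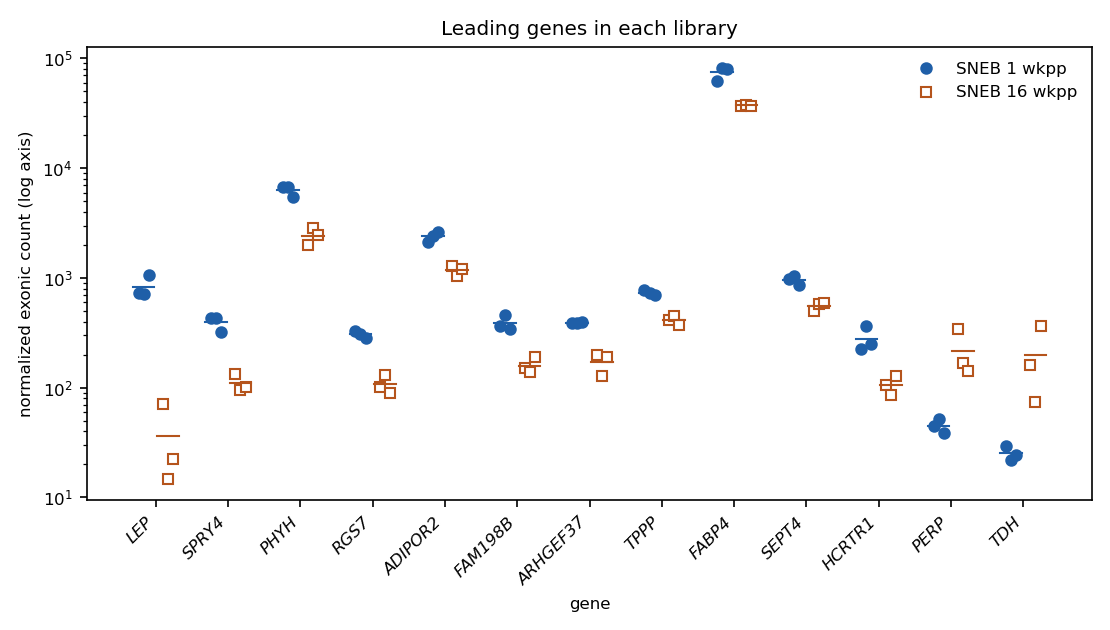
Normalized exonic counts on a logarithmic axis for the 13 leading genes in each SNEB library at 1 wkpp (filled circles) and 16 wkpp (open squares), with horizontal bars at the group means. Values at 1 wkpp lay above those at 16 wkpp in 11 genes and below them in *PERP* and *TDH*, with no overlap in any of the 13. Absence of overlap was part of the rule that picked 10 of them.

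Of the 20 genes of lipolysis tested, 16 had higher fitted levels at 1 wkpp. Of the 20, 6 passed the unadjusted threshold in the higher direction and 0 in the lower, against 2.69% and 1.86% of all genes, and the median log2 fold change was 0.44 against -0.01 over all genes. *FABP4*, described above, was among the 6. *FABP4*, *LIPE* and *PLIN1* are also counted in the adipocyte lists below, so that these lists share members and are not separate results. *MGLL*, the monoacylglycerol lipase that frees the last fatty acid from glycerol, had counts of 6092, 6469.7 and 5243 at 1 wkpp and 3317, 2731 and 3679 at 16 wkpp and a log2 fold change of 0.88 ± 0.17 (unadjusted p = 0.00089). Hormone-sensitive lipase (*LIPE*), the enzyme that acts before it, had counts of 11726, 13633 and 9482 at 1 wkpp and 7573, 6932 and 7257 at 16 wkpp and a log2 fold change of 0.67 ± 0.18 (unadjusted p = 0.0055). Both lipases were higher in every library at 1 wkpp, as was *PLIN1*, the protein of the lipid droplet surface that gates their access, with 37442, 42888 and 33594 at 1 wkpp and 30306, 20618 and 18793 at 16 wkpp.

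Among the receptors that act on lipolysis, *PTGER3*, a prostaglandin E receptor that restrains it, had counts of 1151, 1252 and 774 at 1 wkpp and 496, 221 and 447 at 16 wkpp and a log2 fold change of 1.49 ± 0.32 (unadjusted p = 0.0015). *NPR1*, the receptor for natriuretic peptides, which promote lipolysis, had counts of 1914, 2021 and 2047 at 1 wkpp and 1325, 1410.0 and 1662 at 16 wkpp and a log2 fold change of 0.45 ± 0.15 (unadjusted p = 0.014). The 2 receptors have opposite known effects and both were higher in all 3 libraries at 1 wkpp. *CIDEA*, a protein of lipid droplets, was the member with the lowest p-value among those lower at 1 wkpp, with 175, 274 and 194 at 1 wkpp and 214, 485 and 509 at 16 wkpp and groups that overlapped (unadjusted p = 0.057).

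Across the list of fatty acid and triacylglycerol synthesis, the libraries differed more within a time point than between the time points. Of 26 members tested, 0 passed the unadjusted threshold in the higher direction and 1 in the lower, and the median log2 fold change was -0.13. Fatty acid synthase (*FASN*) had counts of 1880.1, 1876 and 5453 at 1 wkpp and 2569.9, 4371 and 30117 at 16 wkpp. Stearoyl-CoA desaturase (*SCD*), which makes monounsaturated fatty acids, had counts of 1103, 4603 and 29156 at 1 wkpp and 9405, 6734 and 123639 at 16 wkpp. In both enzymes library C at 16 wkpp was the highest and library C at 1 wkpp was 2.9 times to 26.4 times the other 2 libraries of its group.

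*THRSP*, a protein of lipogenic cells, was the member past the threshold. Its counts were 238, 516 and 1369.9 at 1 wkpp and 1112, 1204 and 2847 at 16 wkpp, with a log2 fold change of -1.50 ± 0.60 (unadjusted p = 0.037), and library C at 1 wkpp lay within the range at 16 wkpp. The median deviation of the members from their own mean over the 6 libraries, on the log2 scale, was -0.38, -0.30 and 0.51 at 1 wkpp and -0.20, -0.26 and 0.44 at 16 wkpp. The highest value of each group was thus in library C. Without library C at 1 wkpp the median log2 fold change of the list was -0.40, and without library C at 16 wkpp it was 0.18, of the other sign. Lipoprotein lipase (*LPL*), which takes up fatty acids from blood lipids, had a like order of libraries, with 2007, 2187 and 10366 at 1 wkpp and 4709, 3852 and 13929.8 at 16 wkpp.

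Of the adipocyte identity genes and PPARG targets, 5 of 19 tested members passed the unadjusted threshold in the higher direction and 0 in the lower, and the median log2 fold change was 0.08. These were *LEP*, *FABP4*, *LIPE* and *PLIN1*, described above, and *TUSC5*, a protein of the insulin-regulated glucose transporter route, with 14016, 12216 and 13843 at 1 wkpp and 9539, 6949.6 and 8916 at 16 wkpp and a log2 fold change of 0.67 ± 0.18 (unadjusted p = 0.0058). *TUSC5* counts did not overlap between the groups. *PLIN2*, a lipid droplet protein of many cell types, had 1274, 1272 and 3239.9 at 1 wkpp and 3516, 2899 and 2446 at 16 wkpp, so that library C at 1 wkpp again lay among the libraries at 16 wkpp.

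Fatty acid oxidation showed no common direction. Among 38 members tested, 1 passed the unadjusted threshold in the higher direction, which was *PHYH*, and 2 in the lower. *PPARGC1A*, a coactivator that drives mitochondrial genes, had counts of 566, 538 and 642 at 1 wkpp and 1256, 1113 and 581 at 16 wkpp and a log2 fold change of -0.69 ± 0.28 (unadjusted p = 0.041). *SLC25A20*, the carnitine carrier of the inner mitochondrial membrane, had 493, 499 and 538 at 1 wkpp and 616, 727 and 608 at 16 wkpp and a log2 fold change of -0.35 ± 0.15 (unadjusted p = 0.05). *PPARGC1A* overlapped between the groups through library C at 16 wkpp, and *SLC25A20* did not overlap. The median log2 fold change was -0.02, and it was -0.04 for 23 genes of the tricarboxylic acid cycle, of which 0 passed in either direction. With size factors from total reads both medians turned positive, to 0.074 and 0.053.

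For oxidative phosphorylation, 40 of 48 tested members had lower fitted levels at 1 wkpp, with a median log2 fold change of -0.14 and 0 past the unadjusted threshold. The member with the lowest p-value was *ATP5A1*, a subunit of ATP synthase, with 2584, 2821 and 3161 at 1 wkpp and 3521, 3504 and 3250.3 at 16 wkpp and a log2 fold change of -0.27 ± 0.15 (unadjusted p = 0.1). When size factors were taken from total reads, the median moved to -0.041.

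Among the adipokines and their receptors, 4 of 19 tested members passed the unadjusted threshold in the higher direction and 1 in the lower, with a median of 0.08. That median ran from -0.018 to 0.16 with each library left out in turn, and it was 0.25 in the mean of SNEB and MNEB. Besides *LEP* and *ADIPOR2*, the members past the threshold in the higher direction were *SFRP5* and *RARRES2*. *SFRP5*, a secreted binder of Wnt proteins, had counts of 1123, 429 and 465 at 1 wkpp and 194, 189 and 248 at 16 wkpp and a log2 fold change of 1.55 ± 0.40 (unadjusted p = 0.0045). *RARRES2*, which encodes chemerin, had counts of 2149, 2773 and 2722 at 1 wkpp and 1886, 1774 and 1777 at 16 wkpp and a log2 fold change of 0.48 ± 0.15 (unadjusted p = 0.013). Neither gene overlapped between the SNEB groups. In the mean of SNEB and MNEB the log2 fold change was 1.14 ± 0.35 for *SFRP5* and 0.12 ± 0.17 for *RARRES2*. In MNEB alone *RARRES2* had -0.29 ± 0.29, of the opposite sign. *METRNL*, a secreted factor, was the lower member, with 578, 369 and 1512 at 1 wkpp and 1439.8, 1210.3 and 1732 at 16 wkpp and a log2 fold change of -1.06 ± 0.44 (unadjusted p = 0.042), and library C at 1 wkpp exceeded 2 of the 3 libraries at 16 wkpp. *CCL21*, a chemokine of lymphatic vessels and lymphoid tissue, had counts of 211, 75.9 and 1102 at 1 wkpp and 257, 222 and 931 at 16 wkpp, with library C high and the other 2 low in both groups and a log2 fold change of -0.45 ± 0.90.

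Insulin signalling held 1 member past the unadjusted threshold of 15 tested, *PIK3R1*, the regulatory subunit of phosphoinositide 3-kinase. Its counts were 4579, 3531 and 5355 at 1 wkpp and 7141, 7663 and 6129 at 16 wkpp, lower in all 3 libraries at 1 wkpp, with a log2 fold change of -0.65 ± 0.20 (unadjusted p = 0.01). The insulin-regulated glucose transporter (*SLC2A4*) had 129, 151 and 156 at 1 wkpp and 135, 222 and 146 at 16 wkpp, with groups that overlapped. The list's median log2 fold change was -0.06.

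In the growth hormone and IGF system, 1 of 17 tested members passed in each direction, and the median was -0.02. *IGF2*, a growth factor, had counts of 19378, 15475 and 14291 at 1 wkpp and 9229.8, 13195 and 9465 at 16 wkpp and a log2 fold change of 0.63 ± 0.21 (unadjusted p = 0.016). *IGFBP6*, a binding protein with a preference for it, had 1658, 1306 and 3617 at 1 wkpp and 6387, 4041 and 5072 at 16 wkpp and a log2 fold change of -1.35 ± 0.37 (unadjusted p = 0.0061). The growth factor was thus higher and this binding protein lower in all 3 libraries at 1 wkpp. The growth hormone receptor (*GHR*) had 5456, 4933 and 6254 at 1 wkpp and 4174, 3729 and 3961 at 16 wkpp, without overlap, and a log2 fold change of 0.48 ± 0.15 on exons (unadjusted p = 0.014) and 0.35 ± 0.21 over the entire gene (unadjusted p = 0.14). In MNEB *GHR* had -0.51 ± 0.41 on exons. The mean of SNEB and MNEB was 0.0052 ± 0.24 for *GHR*, 0.58 ± 0.18 for *IGF2* and -1.60 ± 0.33 for *IGFBP6*. *IGFBP1* and *IGFBP2* were high in libraries A and B at 1 wkpp. *IGFBP2* counts were 349.9, 267 and 16.9 at 1 wkpp and 29.4, 7.32 and 16.6 at 16 wkpp and *IGFBP1* counts were 257, 388 and 10.3 at 1 wkpp and 47.2, 38.7 and 12.2 at 16 wkpp.

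The ERK pathway and its feedback inhibitors had a median of 0.03 over 26 tested members, or -0.049 to 0.17 with each library left out. Of the 26, 2 passed the unadjusted threshold in the higher direction and 0 in the lower. These were *SPRY4* and *FGF1*, a fibroblast growth factor that acts through receptor tyrosine kinases, with 442, 354 and 1065 at 1 wkpp and 149, 166 and 222 at 16 wkpp and a log2 fold change of 1.66 ± 0.45 (unadjusted p = 0.0057). All 3 *FGF1* libraries at 1 wkpp lay above those at 16 wkpp, and library C was the highest. *DUSP6*, another feedback inhibitor that ERK induces, had 1468, 1351 and 1465 at 1 wkpp and 1159.5, 727 and 1449.9 at 16 wkpp, with overlapping groups. Of the regulators of G protein signalling, 2 of 14 passed in the higher direction, *RGS7* and *RGS3*, the latter with 1363, 1447 and 1048 at 1 wkpp and 739, 852 and 965 at 16 wkpp and a log2 fold change of 0.59 ± 0.18 (unadjusted p = 0.011). *RGS1* was high in libraries A and B at 1 wkpp, with 947, 549 and 129 at 1 wkpp and 212, 141 and 163 at 16 wkpp.

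For the hypoxia response, 3 of 23 tested members passed the unadjusted threshold in the higher direction and 1 in the lower, with a median of 0.02. That median ran from -0.13 to 0.091 with each library left out in turn, and it was -0.058 in the mean of SNEB and MNEB. *EPAS1*, an oxygen-regulated transcription factor abundant in endothelium, had counts of 6665, 7617 and 5826 at 1 wkpp and 3437, 3565 and 2823 at 16 wkpp and a log2 fold change of 1.03 ± 0.17 (unadjusted p = 0.00029). *ADM*, the vasodilator peptide adrenomedullin, had counts of 17751, 20910.0 and 6435 at 1 wkpp and 3228, 4880.1 and 3966 at 16 wkpp and a log2 fold change of 1.76 ± 0.40 (unadjusted p = 0.0022). *ADM* counts did not overlap, but library C at 1 wkpp was 0.363 times as high as A and 0.308 times as high as B. *BNIP3*, a mitochondrial protein of mitophagy, had 3169, 2249 and 1148 at 1 wkpp and 1326, 1064 and 967 at 16 wkpp and a log2 fold change of 0.86 ± 0.34 (unadjusted p = 0.034). *LDHA*, lactate dehydrogenase A, was the lower member, with 249, 301 and 372 at 1 wkpp and 554, 353 and 430.4 at 16 wkpp (unadjusted p = 0.048).

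Of 16 circadian clock genes tested, 14 had lower fitted levels at 1 wkpp and 2 of them passed the unadjusted threshold, with a median of -0.31, which was -0.55 without library C at 16 wkpp. *BHLHE41*, a repressor of the clock, had counts of 252, 179 and 511 at 1 wkpp and 580.2, 741 and 534 at 16 wkpp and a log2 fold change of -1.08 ± 0.34 (unadjusted p = 0.012). *DBP*, a transcription factor whose transcript cycles with the clock, had 393, 421 and 1532 at 1 wkpp and 1243, 1314 and 1768 at 16 wkpp and a log2 fold change of -1.16 ± 0.47 (unadjusted p = 0.038). *BHLHE41* did not overlap, while library C at 1 wkpp placed *DBP* among the libraries at 16 wkpp. The hour of the biopsies is not given in the sources used here, and its part in these values was not tested.

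Few glucocorticoid response or immediate early genes stood out. In the first list 0 of 15 members passed the unadjusted threshold, with a median of 0.27 (0.63 without library C at 1 wkpp and 0.0010 without library C at 16 wkpp), and *SGK1*, a kinase induced by corticosteroids, had 2443, 2803 and 754 at 1 wkpp and 987, 822 and 1059 at 16 wkpp. In the second, 1 of 20 passed, *JUNB*, a subunit of the AP-1 transcription factor, with 1849.8, 1201 and 1012 at 1 wkpp and 835, 559 and 1113 at 16 wkpp (unadjusted p = 0.045), and the median was 0.31 in SNEB, 0.082 to 0.46 with each library left out in turn, and -0.30 in MNEB. *SGK1* separated libraries A and B at 1 wkpp from the other 4.

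Of 21 genes of cholesterol synthesis and uptake tested, 18 had higher fitted levels at 1 wkpp, 3 had lower ones, 5 passed the unadjusted threshold in the higher direction, 0 passed in the other, and the median was 0.36. The median was 0.19 without library B at 16 wkpp and 0.54 without library A at 16 wkpp. *SREBF2*, the transcription factor that drives the route, had counts of 965, 1134 and 911 at 1 wkpp and 716, 644 and 735 at 16 wkpp and a log2 fold change of 0.52 ± 0.15 (unadjusted p = 0.0089). It was higher in all 3 libraries at 1 wkpp, library C included.

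Further along the route, *PMVK*, a kinase of mevalonate metabolism, had 157, 147 and 125 at 1 wkpp and 64.1, 63.8 and 101 at 16 wkpp and a log2 fold change of 0.94 ± 0.27 (unadjusted p = 0.0086). Lanosterol synthase (*LSS*) had 192, 208 and 224 at 1 wkpp and 134, 83.6 and 155 at 16 wkpp and a log2 fold change of 0.78 ± 0.26 (unadjusted p = 0.017). *DHCR7*, the enzyme of the final reduction, had 559, 316 and 408 at 1 wkpp and 262, 206 and 304 at 16 wkpp and a log2 fold change of 0.72 ± 0.26 (unadjusted p = 0.023). The groups did not overlap in any of these 3 genes. In MNEB the list's median log2 fold change was -0.33, of the opposite sign, and over both, where the code cancels, it was 0.027.

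Of the genes of glycine, serine and threonine metabolism, 1 of 16 passed the unadjusted threshold in each direction, and the median was 0.06. *TDH*, described above, was lower. *SDSL*, a protein related to serine dehydratase, was higher, with 100.4, 119 and 128 at 1 wkpp and 42.7, 80.5 and 51.0 at 16 wkpp and a log2 fold change of 1.04 ± 0.31 (unadjusted p = 0.0099), and its groups did not overlap.

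Of 25 collagens and other matrix genes tested, 18 had lower and 7 higher fitted levels at 1 wkpp, 7 passed the unadjusted threshold in the lower direction and 0 in the other, against 1.86% and 2.69% of all genes, and the median was -0.55. Without library B at 1 wkpp the median was -0.24. Lumican (*LUM*), a proteoglycan that spaces collagen fibrils, had counts of 4558, 4913 and 7249 at 1 wkpp and 12499, 11599.7 and 19049 at 16 wkpp and a log2 fold change of -1.37 ± 0.26 (unadjusted p = 0.00064). Decorin (*DCN*), a proteoglycan of the same family, had counts of 60061, 43143 and 67767 at 1 wkpp and 104440.0, 91519 and 87148 at 16 wkpp and a log2 fold change of -0.75 ± 0.23 (unadjusted p = 0.01). Fibromodulin (*FMOD*), also of that family, had counts of 2763, 1608 and 6512 at 1 wkpp and 8357, 11628 and 10855 at 16 wkpp and a log2 fold change of -1.74 ± 0.46 (unadjusted p = 0.0054). In all 3 proteoglycans every library at 1 wkpp lay below every library at 16 wkpp, and library C was the nearest to them.

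The collagen VI chains *COL6A1* and *COL6A2* form beaded filaments around fat cells. *COL6A1* had counts of 25896, 17975 and 33578 at 1 wkpp and 36683, 47736 and 55079 at 16 wkpp and a log2 fold change of -0.88 ± 0.27 (unadjusted p = 0.012), and *COL6A2* had 12892, 12227 and 22033 at 1 wkpp and 23827, 27863 and 35200.1 at 16 wkpp and -0.92 ± 0.27 (unadjusted p = 0.009). Neither overlapped between the groups. Fibronectin (*FN1*), a large adhesive glycoprotein, had 28189, 14088 and 89976 at 1 wkpp and 124697, 88618 and 293261 at 16 wkpp and a log2 fold change of -2.18 ± 0.69 (unadjusted p = 0.013). The fibrillar collagen chain *COL1A1* and periostin (*POSTN*) were far higher in library C than in libraries A and B of each group. *COL1A1* counts were 31675, 33057 and 149442 at 1 wkpp and 64165, 88227 and 400929 at 16 wkpp, and *POSTN* counts were 424, 545 and 5538 at 1 wkpp and 2509, 3973 and 39595 at 16 wkpp. For both, library C was the highest of its group at each time point.

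Interferon-stimulated genes held 1 lower member past the unadjusted threshold of 18 tested, *IFIT5*, with 1201, 1488 and 1757 at 1 wkpp and 2430.2, 2279.6 and 1752 at 16 wkpp (unadjusted p = 0.025), and a median of -0.29. That median was -0.66 without library C at 1 wkpp and 0.096 without library A at 1 wkpp, and it was 0.45 in MNEB. Cell division genes had a median of -0.84 over 22 members, of which 1 passed, *NUSAP1*, a spindle protein with 0.921, 5.5 and 16.0 at 1 wkpp and 22.2, 24.0 and 46.6 at 16 wkpp. The median deviations of the cell division list were -0.63, -1.16 and 0.60 at 1 wkpp and -0.48, 0.45 and 1.41 at 16 wkpp, so that its spread within each group exceeded the difference between them. The list's median log2 fold change was -1.38 without library C at 1 wkpp and -0.44 without library C at 16 wkpp.

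The housekeeping lists differed little. The median log2 fold change was -0.09 for 76 cytosolic ribosomal proteins, -0.07 for 73 mitochondrial ribosomal proteins and -0.16 for 37 proteasome genes, of which 0, 1 and 0 members passed the unadjusted threshold. With size factors from total reads the second of these medians turned positive, to 0.026.

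**Figure D3:**
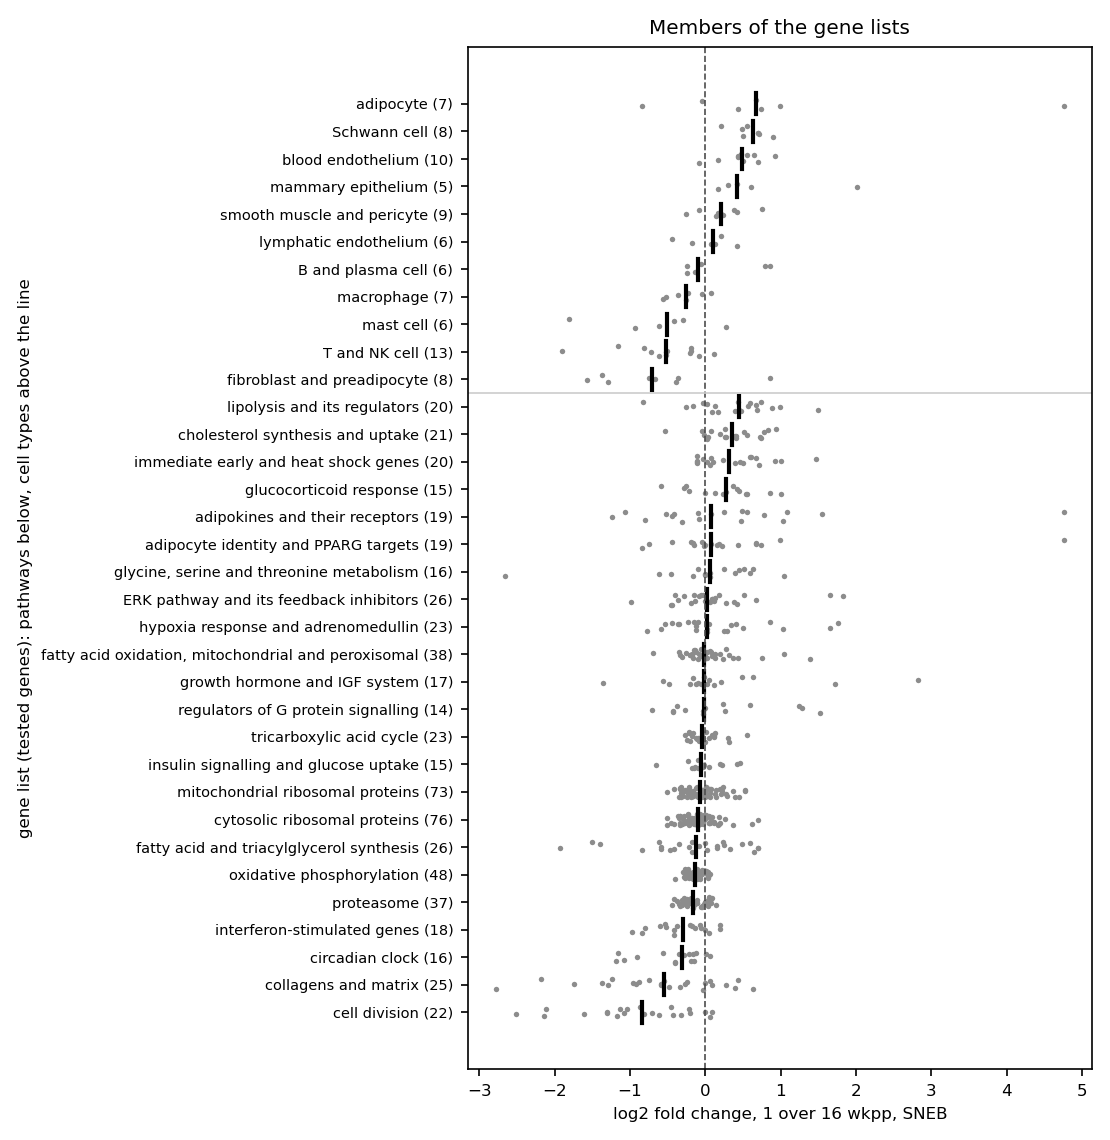
Log2 fold change of 1 over 16 wkpp in SNEB, from exonic reads, for each tested gene (grey points) of the pathway and cell type lists with at least 5 tested members, with the list median as a black bar and the median of all 10496 genes, -0.01, as a dashed line. The medians of lipolysis, cholesterol synthesis, adipocyte and blood endothelium lists lay above 0.3 and those of matrix and fibroblast lists below -0.5, as did other lists in which no or 1 member passed the unadjusted threshold.

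Of 7 adipocyte markers tested, 5 had higher and 2 lower fitted levels at 1 wkpp, and 4 passed the unadjusted threshold, all in the higher direction. The summed counts of the markers were 124822, 149619 and 146468 at 1 wkpp and 87722, 75301 and 86786 at 16 wkpp, without overlap. Those past the threshold were *FABP4*, *PLIN1*, *LIPE* and *LEP*, already described, and they made up 72.7% to 93.4% of the sum in each library. The other markers summed to 12489, 9858 and 22777 at 1 wkpp and 12679, 9874 and 23674 at 16 wkpp, with groups that overlapped. The difference in the sum thus lay in the 4 genes, which were set apart by passing the threshold for this same difference. The tissue label was met, since *FABP4* and *PLIN1* were among the abundant transcripts of every library. Adiponectin (*ADIPOQ*) was not analysed here. The defining markers that were analysed were all above 0 in the 6 libraries.

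Blood endothelium showed the largest share of members past the unadjusted threshold of these lists, 7 of 10, all higher at 1 wkpp, with a median of 0.48. *FLT1*, a receptor for vascular endothelial growth factor, had 1655, 1969 and 1148 at 1 wkpp and 675, 938 and 861 at 16 wkpp and a log2 fold change of 0.93 ± 0.23 (unadjusted p = 0.0034). *PECAM1*, an adhesion molecule of endothelial junctions, had 16165, 15548 and 14778 at 1 wkpp and 10144, 10500.2 and 13008 at 16 wkpp and a log2 fold change of 0.47 ± 0.17 (unadjusted p = 0.023). The summed counts were 70683, 69189.7 and 55926 at 1 wkpp and 43605, 45017 and 49555 at 16 wkpp, and every library at 1 wkpp lay above every library at 16 wkpp. With 3 libraries against 3, a two-sided exact permutation test of such a sum cannot give a p-value below 0.1.

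Of the fibroblast and preadipocyte markers, 3 of 8 passed in the lower direction, *LUM*, *DCN* and *THY1*, and the median was -0.71, or -0.43 without library B at 1 wkpp. *THY1*, a surface protein of stromal cells, had 5765, 2599 and 10389.7 at 1 wkpp and 16269.5, 12496 and 19492 at 16 wkpp and a log2 fold change of -1.57 ± 0.47 (unadjusted p = 0.0096). The summed counts were 124102, 99813 and 258851 at 1 wkpp and 223596, 230569 and 554402 at 16 wkpp, where library C at 1 wkpp exceeded 2 of the libraries at 16 wkpp. The part of the cell makeup in the adipocyte, endothelial and matrix differences was not tested.

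The immune cell markers differed between libraries of a group. The summed macrophage markers were 28858, 21167 and 46613 at 1 wkpp and 46264, 38952 and 51093 at 16 wkpp, and 1 of 7 tested passed in the lower direction, *CSF1R*, the receptor of the macrophage growth factor, with 5735, 4472 and 6488 at 1 wkpp and 9208, 7115 and 8097 at 16 wkpp and a log2 fold change of -0.56 ± 0.19 (unadjusted p = 0.02). The T and NK cell markers summed to 673, 471 and 1296 at 1 wkpp and 596, 916 and 1622 at 16 wkpp, with 0 members past the threshold, and the B and plasma cell markers to 4105, 3948 and 9262 at 1 wkpp and 6413, 4578 and 6640.4 at 16 wkpp, also with 0. Among the mast cell markers, which summed to 5237, 3825 and 10702 at 1 wkpp and 9873, 8877 and 7545 at 16 wkpp, *FCER1A* passed in the lower direction, with 18.4, 11.0 and 162 at 1 wkpp and 154, 83.6 and 124 at 16 wkpp. In each of these 4 lists library C was the highest at 1 wkpp. For the macrophage markers libraries A and B at 1 wkpp lay below every library at 16 wkpp, and library C did not. Without library C at 1 wkpp the median log2 fold changes of the 4 lists, in the order above, moved from -0.26, -0.52, -0.09 and -0.51 to -0.68, -0.92, -0.56 and -1.20. Without library C at 16 wkpp they were -0.0062, -0.14, -0.24 and -0.51. With each of the 6 libraries left out in turn, the medians ran from -0.68 to -0.0062, -1.04 to -0.093, -0.56 to 0.43 and -1.20 to -0.02, so that the sign changed for B and plasma cells. Without library B at 1 wkpp the mast cell median was -0.02 and the T and NK cell median -0.093. The macrophage median was 1.10 in MNEB and 0.48 in the mean of SNEB and MNEB, in which the log2 fold change of *CSF1R* was 0.15 ± 0.22.

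The summed counts of Schwann cell and of mammary or glandular epithelial markers were highest in library A at 1 wkpp, as were those of lymphatic endothelium and of smooth and skeletal muscle. Schwann cell markers summed to 12679, 2831 and 2930.3 at 1 wkpp and 2388, 3415 and 3818 at 16 wkpp. Mammary or glandular epithelial markers summed to 1796, 457 and 515 at 1 wkpp and 394, 499.6 and 755 at 16 wkpp, and among them the keratin *KRT8* had 820.4, 156 and 184 at 1 wkpp and 158, 215 and 326 at 16 wkpp, while the casein *CSN3* was at 0 in the 6 libraries. None of the members of these lists passed the unadjusted threshold, 0 of 8 and 0 of 5. Smooth muscle and pericyte markers, which summed to 46297, 29359.9 and 29614 at 1 wkpp and 43664, 38730.2 and 19932 at 16 wkpp, and lymphatic endothelium, which summed to 12429, 6327 and 9958 at 1 wkpp and 10144, 8063 and 7054 at 16 wkpp, held 0 members past the threshold. Skeletal muscle, keratinocyte and erythrocyte markers had 3, 4 and 1 tested members, with summed counts of at most 4106, 1585 and 82.5 per library, and *TPM2*, *DSP* and *PERP* passed in them.

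**Figure D4:**
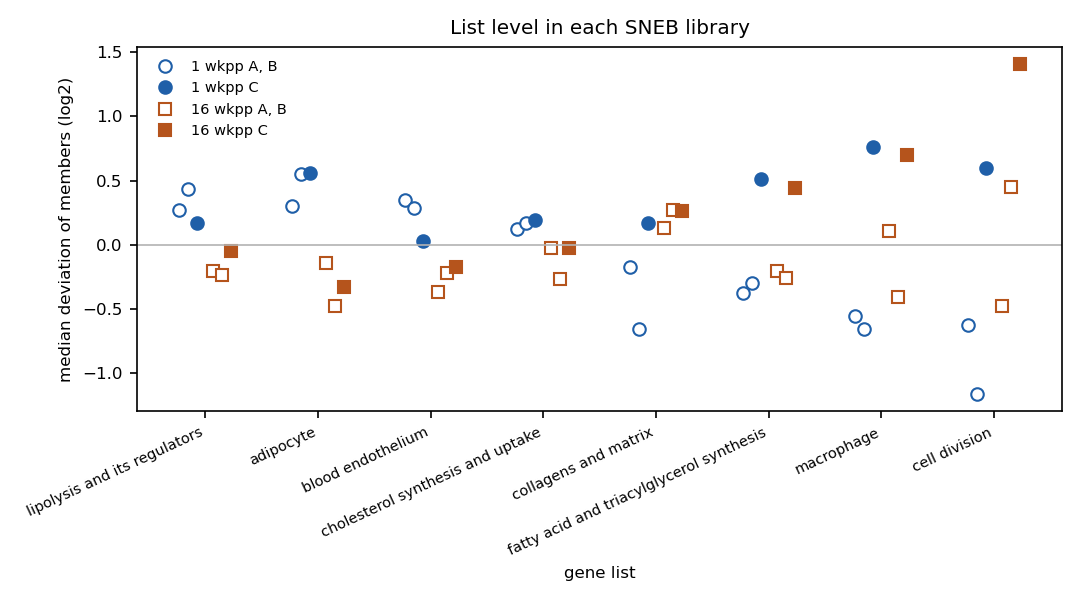
Median deviation of list members from their own mean over the 6 SNEB libraries (log2 scale) for 8 lists, with 1 point per library, circles for 1 wkpp and squares for 16 wkpp, and filled symbols for library C of each time point. In the synthesis list the 2 filled symbols lay at 0.51 and 0.44 and the other 4 libraries below 0, while the lipolysis, adipocyte and blood endothelium lists separated the time points.

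The comparison was repeated without library C at 1 wkpp, a setting that leaves 2 libraries against 3. The genes past an unadjusted p-value below 0.05 in both analyses then numbered 1245, against 477 with all libraries, and 22 had adjusted p-values below 0.05 on exons and the entire gene, while 0 passed at 0.01 (limma-voom with Benjamini-Hochberg adjustment). Without library A at 1 wkpp the unadjusted number was 166, and without library A at 16 wkpp it was 275. *LEP*, *SPRY4*, *PHYH* and *ADM* were among the 22, with log2 fold changes of 4.56, 1.97, 1.49 and 2.28. Of the genes that libraries A and B carried, *SGK1* and *IGFBP1* were also in it, with 1.46 and 3.40, and *FMOD*, *IGFBP6* and *DBP* were in it in the lower direction, with -2.28, -1.78 and -1.81. The library was left out because of its likeness to the other group, which is a choice made on the measured values, so these 22 genes are a description and no call.

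The same time points in MNEB were set beside these values. The MNEB libraries were shallower, with 2.21 to 7.66 times 1e6 exonic reads on genes. Their spike-in reads per 100 exonic gene reads were 4.71, 22.5 and 37.2 at 1 wkpp and 4.95, 13.8 and 11.4 at 16 wkpp. In SNEB this value ran from 0.294 to 2.18. What lies behind this was not tested, and it bears on every MNEB value and on the mean of SNEB and MNEB. The difference between the SNEB and the MNEB change was tested in 12 libraries. No gene was called at an adjusted p-value below 0.01 (0 of 10249 genes, 0%), nor below 0.05, by limma-voom, and limma-trend called 0. At an unadjusted p-value below 0.05, 289 genes differed in both analyses by limma-voom and 381 by limma-trend. The code in the titles does not cancel in this difference and cannot be told apart from it. The change in SNEB is therefore not shown to differ from that in MNEB for any gene.

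*LEP* had counts of 97.9, 203 and 301 in MNEB at 1 wkpp and 262, 61.4 and 83.2 at 16 wkpp, on the scale of the 15 libraries, and a log2 fold change of 0.13 ± 0.60 there. The difference of the SNEB and MNEB changes was 4.72 ± 0.86 on the log2 scale (unadjusted p = 0.00011, adjusted p = 0.456). The MNEB groups overlapped and the SNEB groups did not. *TPPP* had counts of 598, 378 and 502 in MNEB at 1 wkpp and 951, 785 and 961 at 16 wkpp, with a log2 fold change of -0.87 ± 0.24, of the opposite sign to that in SNEB, and a difference of 1.69 ± 0.26 (unadjusted p = 2.3e-05, adjusted p = 0.233). *RGS7* differed by 1.69 ± 0.43 (unadjusted p = 0.0018, adjusted p = 0.958).

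*PERP* and *ADM* had the same sign in both groups of cows. *PERP* had a log2 fold change of -2.20 ± 0.46 in SNEB and -2.60 ± 0.54 in MNEB, a difference of 0.44 ± 0.80 in the fit of 12 libraries. *ADM* had 1.76 ± 0.40 and 1.78 ± 0.45, a difference of 0.00 ± 0.67. *SPRY4* had 0.78 ± 0.52 in MNEB and *PHYH* 0.52 ± 0.40, both of the same sign as in SNEB and with a larger error.

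Averaged over SNEB and MNEB, which cancels the code in the titles, the log2 fold change was 1.37 ± 0.30 for *SPRY4*, 1.00 ± 0.23 for *PHYH*, 0.97 ± 0.22 for *FAM198B*, 0.95 ± 0.22 for *HCRTR1*, 0.55 ± 0.17 for *SEPT4*, -2.38 ± 0.40 for *PERP* and 1.78 ± 0.33 for *ADM*. It was further from the SNEB value, in relation to its size, in the other leading genes. It was 2.40 ± 0.43 for *LEP*, 0.70 ± 0.22 for *RGS7*, 0.57 ± 0.24 for *ARHGEF37*, 0.56 ± 0.34 for *ADIPOR2* (unadjusted p = 0.12), 0.53 ± 0.51 for *FABP4* (unadjusted p = 0.32), -1.08 ± 0.76 for *TDH* (unadjusted p = 0.18) and 0.0084 ± 0.13 for *TPPP* (unadjusted p = 0.95). None of these 14 genes passed an adjusted p-value below 0.05 in that fit by limma-voom, in which *PERP* and *LEP* both had 0.0546.

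The same average left some list medians near their SNEB values and moved others. It was 0.43 for lipolysis, 0.52 for blood endothelium, 0.53 for adipocyte markers, -0.55 for the matrix, -0.66 for fibroblasts and -0.29 for the circadian clock. For cell division it was -0.16, and it was of the other sign than in SNEB for, among others, immediate early genes, interferon-stimulated genes and macrophages, with -0.10, 0.16 and 0.48.

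**Figure D5:**
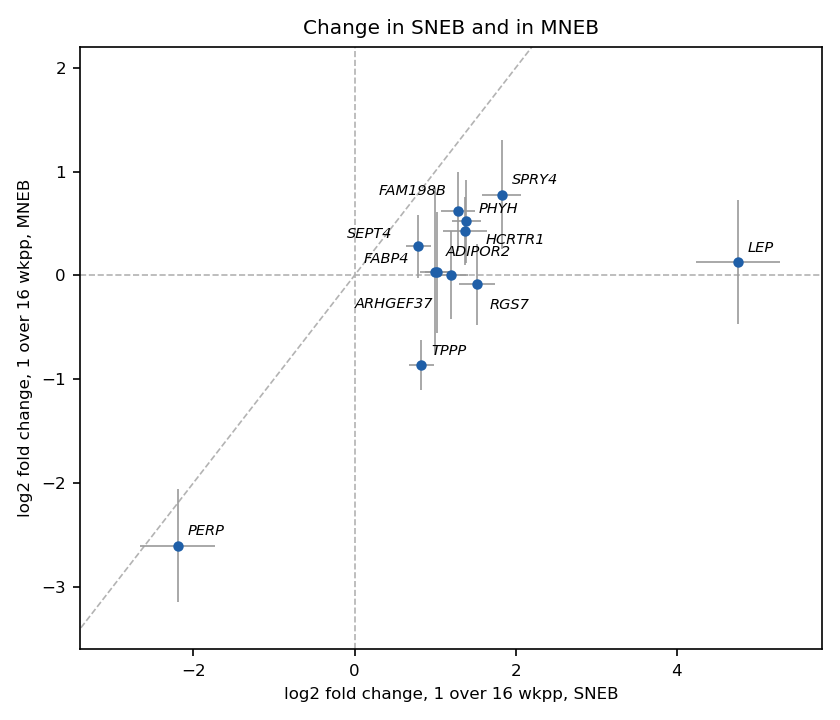
Log2 fold change of 1 over 16 wkpp in SNEB (horizontal axis) and MNEB (vertical axis), from exonic reads, for 12 leading genes, with bars of 1 SE from limma-voom and dashed lines at 0 and at equality. *LEP* lay at 4.75 in SNEB and 0.13 in MNEB, *PERP* below -2 in both, and *TPPP* at 0.83 and -0.87.

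Set beside the libraries at -4 wkpp, which the labels assign to neither SNEB nor MNEB, on the scale of the 15 libraries, the leading genes followed different orders. *PHYH* had 2079, 1724 and 1731 at -4 wkpp, 6785, 6786 and 5571 at 1 wkpp and 1979, 2824 and 2436 at 16 wkpp. *FABP4* had 30161, 40349.7 and 33564 at -4 wkpp, against 62549, 83644 and 80957 and 36951, 37834 and 36752. *RGS7* had 95.2, 66.7 and 57.4 at -4 wkpp, against 329, 311 and 285 and 102, 129.5 and 88.1. For these 3 genes the SNEB libraries at 1 wkpp were above all libraries of both other time points. *ADIPOR2* was at -4 wkpp near its level at 1 wkpp, with 2069, 2652 and 2088 at -4 wkpp, against 2149, 2453 and 2663 and 1276, 1038 and 1194. *TPPP* had 569, 780.5 and 695 at -4 wkpp, against 782, 739 and 706 and 415, 450.1 and 371. In these 2 genes all libraries at -4 wkpp were above those of SNEB at 16 wkpp. *ARHGEF37* and *FAM198B* followed another order, with 856, 852 and 821 and 631, 720.0 and 696 at -4 wkpp, above both SNEB time points, as for *LEP*. *TDH* had 323, 224 and 362 at -4 wkpp, within or near the range at 16 wkpp and at least 7.59 times the level of any library at 1 wkpp. The libraries at -4 wkpp carry the title code of SNEB at 16 wkpp and not that of SNEB at 1 wkpp. Among these libraries the code and the time point thus cannot be told apart for *PHYH*, *FABP4*, *RGS7* and *TDH*. The mean of SNEB and MNEB, in which the code cancels, is given above for each of them. These values across time points are a description with no test.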

How the data were processed

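RNA of dewlap subcutaneous fat was sequenced in 15 libraries, 3 in each of 5 groups, and the 6 SNEB libraries at 1 and 16 wkpp were compared. The reads were trimmed by the authors (Cutadapt 1.3, after bcl2fastq 2.15.0), aligned with TopHat2 to bosTau8 and counted with htseq-count, on exons and on entire genes. The deposited tables of the authors, 6 of them with 0 columns of other samples, hold per gene the mean over 6 libraries of the counts divided by DESeq2 size factors, and the authors' log2 fold change, its standard error, a test score, a p-value and an adjusted p-value. Those results of the authors were not used here.

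Each mean is a sum of whole reads weighted by the size factors. Genes with a single read gave the weights, and lattice reduction over the 6 tables gave the reads per library for 13983 of 13988 entries in each analysis. *COL3A1* and 4 spike-ins were not recovered, as more than 1 solution could meet their means. The 1320 spike-in values, recovered separately in the 2 analyses, were identical. The method was tested on simulated data. A library's group follows from the tables in which its reads occur, and a library is not tied to a sample record.

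The planned test assumed counts in the files. Since the counts were recovered from means, limma-voom (limma 3.58.1, R 4.3.3) was run with the authors' size factors on genes with a mean normalized count of at least 10, and p-values were adjusted by Benjamini-Hochberg. A gene was called at adjusted p-values below 0.01 on exons and on the entire gene, with 1 sign. The SNEB libraries held 11.1 to 14.9 times 1e6 exonic reads on genes, and those of MNEB less, so that low genes are less precise there.

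Named genes were those called; up to 12 per direction with an unadjusted p-value below 0.001 in both analyses and groups that did not overlap; the 9 genes that the study lists; and up to 4 members per list with the lowest p-value, plus members needed to describe a list. Some list members are not reported here by name. The members and the 37 lists were chosen with earlier results of these data known. Alternatives were other size factors, filters, pseudocounts (0.5 and 5) and fits, and leaving out each library. The number of genes at an unadjusted p-value below 0.05 was added after the data were seen. Python 3.11.15 was used.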

Additional observations from a re-analysis of the deposited data

How the results depend on the processing

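No setting called a gene for the change in SNEB or for its difference from MNEB. In the exon analysis alone, the fit of all 15 libraries put *LEP* at an adjusted p-value of 0.0043 (limma-voom). The genes at an unadjusted p-value below 0.05 numbered 477, 1166 for the mean of the SNEB and MNEB changes, and 166 to 1245 with each library left out in turn. No paired analysis was possible because the libraries carry no animal number, although the study's methods describe repeated biopsies of each cow.

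Of 1182 recomputed log2 fold changes of the 74 genes named from lists or rules, 1175 kept their sign. The others were 0.40 for *CCL21*, 0.15 for *CSF1R* and -0.29 for *KRT8* in the mean of SNEB and MNEB, and the ranges with a library left out were -1.49 to 0.38 for *CCL21*, -0.36 to 0.83 for *KRT8* and -0.32 to 0.041 for *SLC2A4*.

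List medians moved by more than the spread between libraries in 28 of 578 recomputations. With size factors from total reads they were 0.074 for fatty acid oxidation, 0.078 for regulators of G protein signalling, -0.041 for oxidative phosphorylation, 0.053 for the tricarboxylic acid cycle and 0.026 for mitochondrial ribosomal proteins. In the mean of SNEB and MNEB they were 0.14 for regulators of G protein signalling, -0.10 for immediate early genes, 0.027 for cholesterol synthesis, -0.28 for oxidative phosphorylation, -0.15 for the tricarboxylic acid cycle, 0.16 for interferon-stimulated genes, 0.48 for macrophages, -0.31 and -0.15 for cytosolic and mitochondrial ribosomal proteins and -0.27 for the proteasome. In the whole gene analysis the regulators of G protein signalling had 0.12. Leaving out each library gave 0.32 to 0.50 for lipolysis, -0.080 to 0.019 for fatty acid oxidation, -0.081 to 0.14 for regulators of G protein signalling, -0.11 to 0.10 for insulin signalling, -0.55 to -0.21 for the circadian clock, 0.19 to 0.54 for cholesterol synthesis, -0.13 to -0.015 for the tricarboxylic acid cycle, -0.010 to 0.16 for glycine, serine and threonine metabolism and -0.71 to -0.24 for the matrix. The cause was not tested.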
